A study of Drosophila melanogaster with 14 samples.

Results

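The cells described here are cultured ovarian somatic cells (OSCs) of Drosophila melanogaster after 48 hours of RNAi against EGFP, a sequence that fly cells lack. They are the control of an RNA sequencing experiment, and their 2 libraries are 2 of the 14 samples of the series and 2 of its 8 RNA samples. They were chosen by label alone, and every one of the 16727 genes of the count table was examined, which gives the baseline transcriptome of the cells. The growth medium was M3 insect medium with added serum, insulin, glutathione and fly extract, and messenger RNA was selected by its poly(A) tail before stranded libraries were made. The cells are a cultured line, and nothing in the labels says whether the 2 libraries came from separate cultures, so their difference is the spread between 2 samples and could be technical alone. No value is set against the knockdowns of the same series.

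OSCs descend from the follicle cells that wrap the germline cysts of the ovary, and by their label the cultured cells are somatic only. They silence transposons with a short form of the piRNA pathway. Long precursor transcripts from clusters such as flamenco gather in perinuclear Yb bodies, are cleaved at the surface of mitochondria, and load the Argonaute protein Piwi, which enters the nucleus and directs transcriptional silencing of gypsy-like elements. The germline of the ovary adds another arm, the ping-pong cycle of Aubergine and Argonaute3 around Vasa, and it transcribes dual-strand clusters through Rhino and its partners.

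Library 1 held 18721044 reads on genes and library 2 held 19512731. Levels are CPM, that is read counts scaled to a sum of 1000000 over all genes, given for library 1 and then library 2, so they are shares of reads and grow with the length of a transcript as well as with its abundance. Levels are therefore not ranked between genes as expression. A gene is called expressed when it reached 1 CPM in both libraries, about 18.7 reads in library 1 and 19.5 in library 2, and silent when it had no read in either. A count of 0 still allows up to 3 reads (one-sided, 95%), or 0.160 CPM in library 1 and 0.154 CPM in library 2, and this limit covers counting error only. The cells are bulk samples, in which fewer cells of a type and less RNA per cell cannot be told apart.

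The markers of the labelled cell type were present in both libraries. The traffic jam gene (tj; 2L, 19464267 to 19467758, dm6), for the large Maf transcription factor of ovarian somatic cells, stood at 209 and 296 CPM, a mean of 252 ± 61.5 CPM (SD, n = 2). The piwi transcript (2L, 10982205 to 10987420) stood at 560.2 and 681 CPM, a mean of 621 ± 85.5 CPM (SD, n = 2). The fs(1)Yb transcript (X, 2720468 to 2724158), for the Tudor domain helicase that builds Yb bodies, stood at 228 and 217.96 CPM, a mean of 223 ± 6.82 CPM (SD, n = 2). The exact Poisson intervals (95%) of tj were 202 to 215 CPM in library 1 and 288 to 303 CPM in library 2, so the libraries differed for it beyond counting error, while the level of fs(1)Yb varied less. Markers of cells other than the labelled type were not uniformly missing. At 1 CPM or more in both libraries were 16 of 32 germline genes, 7 of 14 blood cell markers, 2 of 14 fat body markers and 4 of 30 testis genes. Of all protein-coding genes 50.2% were at this level. The germline and blood cell counts lay near that share, and the fat body and testis counts lay below it. Summed over each list, the germline genes held 414 and 435 CPM, the blood cell markers 287 and 340.03 CPM, the fat body markers 1380 and 1801 CPM and the testis genes 29.6 and 36.9 CPM. Within these lists the nurse cell and oocyte gene otu, the blood cell genes NimC1, eater and He, the larval fat body genes Lsp2 and Fbp1 and the testis tubulin betaTub85D had no read in either library, while the engulfment receptor gene drpr and the ribosomal protein gene RpS5b were each above 100 CPM in both. The fat body sum came mostly from the fatty acid synthase gene CG3523 (FASN1), whose level is given below. Whether other cells had a part in these values was not tested.

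Of the 16727 genes, 7102 were expressed (42.5%), 6902 were silent (41.3%) and 2723 lay between. The expressed genes took 99.9% of the reads in each library. Among the 13714 protein-coding genes, 6889 were expressed (50.2%) and 4673 were silent (34.1%), and these shares are the background for every list and family that follows. With the limit at 5 CPM, 6229 protein-coding genes (45.4%) were expressed. Reads were concentrated on few genes: 264 genes held 50% of all reads and 2877 genes held 90%. In library 1, 154 genes stood at 1000 CPM or more and took 43.0% of the reads, and in library 2 these were 153 genes with 40.7%. The median expressed gene stood at 41.2 CPM in library 1 and 44.8 CPM in library 2.

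The genes with the most reads belonged to the translation machinery, the chaperones and the cytoskeleton. The translation elongation factor gene Ef1alpha48D led in both libraries with 11077 and 12943 CPM, followed by the ribosome translocase gene EF2 with 8183 and 8711 CPM. Ribosomal proteins made up 6 of the 10 genes with the most reads, 18 of the first 25 and 73 of the first 100. Among them RpL8 stood at 8072 and 6796 CPM, RpL13A at 6610 and 5593 CPM and sta, for ribosomal protein SA, at 5718 and 5543 CPM. The remaining genes among the first 25 were Hsc70-4 with 6609 and 6504 CPM, for the constitutive cytosolic Hsp70 chaperone, betaTub56D with 5700 and 5168 CPM and alphaTub84B with 4517 and 4436 CPM, the main beta and alpha tubulins, Act5C with 5200 and 5350 CPM, a cytoplasmic actin, and Rack1 with 4596 and 4390 CPM, a scaffold on the small ribosomal subunit. The 10 first genes together took 6.97% of the reads in library 1 and 6.65% in library 2.

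**Figure D1:**
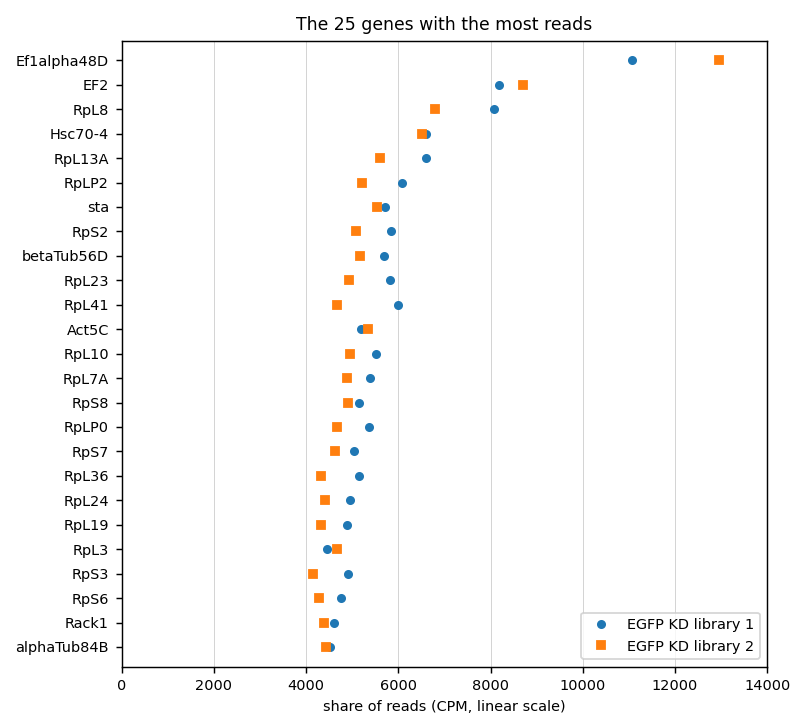
The 25 genes with the most reads are plotted by their share of reads in CPM (linear x axis), with circles for EGFP KD library 1 and squares for EGFP KD library 2. Ef1alpha48D lies at 11077 CPM in library 1 and 12943 CPM in library 2, and 18 of the 25 genes encode ribosomal proteins.

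The somatic piRNA pathway was transcribed throughout: all 41 genes of its 4 lists were expressed, against 50.2% of all protein-coding genes. These lists also hold general factors, such as Hsp83, ctp and smt3. Other lists were expressed in full as well, such as cell cycle genes (38 of 38) and insulator genes (12 of 12). A full list is therefore not particular to this pathway. In the Yb body group, with 7 of 7 expressed, the RNA helicase gene armi stood at 1086 and 1216 CPM, the Tudor protein gene vret at 111 and 113 CPM and SoYb, a sister of Yb, at 25.8 and 42.4 CPM. Of the Piwi loading factors, shu, a cochaperone, stood at 224 and 212 CPM and Hsp83, the fly Hsp90, at 3281 and 3212 CPM. SoYb was the member whose libraries lay farthest apart in this group.

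At the mitochondrial surface, 7 of 7 genes were expressed. The endonuclease gene zucchini (zuc), which sets the 5′ ends of piRNAs, stood at 20.6 and 25.1 CPM. Of its partner genes, Gasz stood at 20.1 and 28.7 CPM, mino at 70.8 and 80.0 CPM and daed, listed as CG10880, at 46.2 and 46.9 CPM. The Tudor protein gene papi stood at 77.4 and 78.2 CPM. For the 3′ end, the trimming exonuclease gene Nbr stood at 78.6 and 82.5 CPM and the methyltransferase gene Hen1 at 11.9 and 10.0 CPM. Hen1 overlaps CG8878 and mino overlaps Mes-4, each a gene with more reads, so reads of these pairs may not be fully told apart.

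The nuclear silencing group had 16 of 16 genes expressed. The genes of the complex that acts below Piwi were Panx, listed as CG9754, with 30.0 and 33.8 CPM, nxf2 with 67.9 and 78.3 CPM, Nxt1 with 74.1 and 65.8 CPM and ctp, a dynein light chain, with 278 and 338 CPM. Asterix (arx), a zinc finger partner of Piwi, stood at 21.1 and 23.3 CPM and maelstrom (mael), needed to hold transcription down, at 109 and 125 CPM. The H3K9 methyltransferase gene egg stood at 182 and 201 CPM, while its cofactor wde stood at 7.7987 and 12.043 CPM, the lowest share of reads of the group. The SUMO gene smt3 stood at 428 and 520.1 CPM, the SUMO ligase gene Su(var)2-10 at 53.3 and 76.0 CPM and the nucleosome remodeller gene Mi-2 at 724 and 806 CPM. Panx overlaps CG42672 and nxf2 overlaps mbf1, both with more reads. All 11 genes for export and splicing of the precursors were also expressed, among them the helicase gene Hel25E with 623 and 648 CPM and the nucleoporin genes Nup358 with 375 and 490.2 CPM and Nup54 with 79.5 and 80.5 CPM. Of the exon junction genes, tsu stood at 145 and 132 CPM and mago at 119 and 110.0 CPM. The transcript of the flamenco cluster itself was not analysed here.

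Of the 18 genes of the germline arm, 14 were expressed by the rule of 1 CPM (77.8%), against 50.2% of all protein-coding genes. Several of these were close to the limit. At 5 CPM there were 9 of 18, near the 45.4% of all protein-coding genes. The Tudor helicase gene spn-E stood at 159 and 201 CPM, the Tudor gene krimp at 101 and 125 CPM, tapas, listed as CG8920, at 67.6 and 74.7 CPM, tud at 24.7 and 43.7 CPM and BoYb, another sister of Yb, at 28.2 and 30.5 CPM. Of the genes for dual-strand transcription, del stood at 49.5 and 81.0 CPM and Trf2, a general transcription factor with other roles, at 46.0 and 72.6 CPM, while cuff stood at 5.50 and 6.97 CPM and rhi, the HP1 variant that defines these clusters, at 2.08 and 3.28 CPM. The core of the ping-pong cycle lay near the limit. The aub gene stood at 2.19 and 2.97 CPM, AGO3 at 1.98 and 2.20 CPM and the Tudor gene qin at 2.14 and 2.77 CPM. For vas there were 28 and 24 reads, or 1.4956 and 1.23 CPM, and it overlaps vig, which had more reads. Below 1 CPM in one library or both were moon (0.961 and 1.13 CPM), Boot (0.320 and 0.205 CPM) and tej (0 and 0.102 CPM), and Kots had no read.

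The small RNA factors outside the piRNA pathway were all expressed, 10 of 10. Of the siRNA effector genes, AGO2 stood at 397 and 503 CPM and Dcr-2 at 293 and 446 CPM, and their partner r2d2 at 72.0 and 79.3 CPM. Of the miRNA genes, AGO1 stood at 68.2 and 104 CPM, Dcr-1 at 53.4 and 60.9 CPM, drosha at 56.8 and 60.1 CPM and pasha at 24.0 and 28.6 CPM, and gw, the silencing effector of AGO1, at 152 and 195 CPM.

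**Figure D2:**
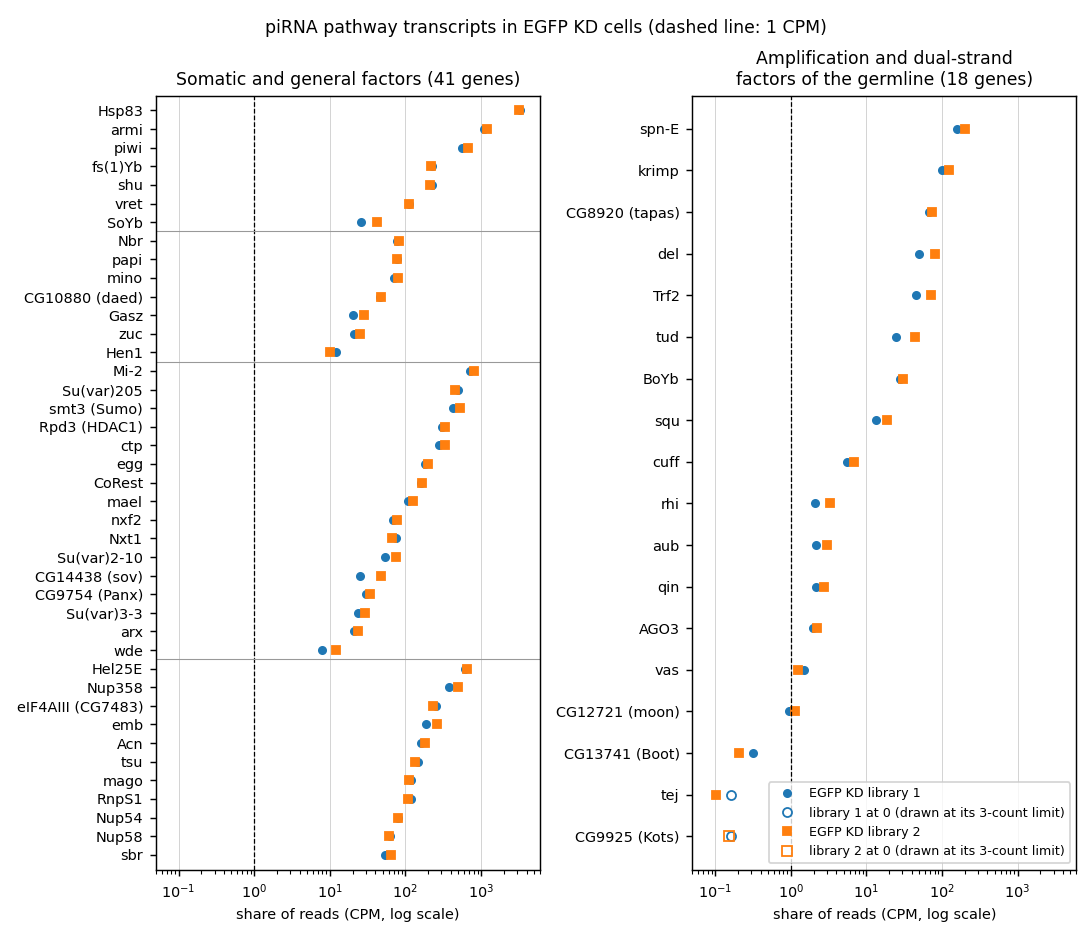
Transcripts of the piRNA pathway are plotted in CPM on a log axis, with circles for EGFP KD library 1 and squares for EGFP KD library 2; the left panel holds the 41 somatic and general factors in 4 blocks (Yb body, mitochondrial surface and 3′ end, nuclear silencing, precursor export) and the right panel the 18 germline factors. All 41 on the left lie right of the dashed line at 1 CPM, while aub, AGO3, qin, rhi and vas lie within a few CPM of it; open symbols mark counts of 0, drawn at the limit of 3 reads.

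Follicle cell transcription factors were mostly present, with 27 of 36 expressed (75%), 5 between and 4 silent. Of all protein-coding genes 50.2% were expressed. Next to tj, the JAK/STAT effector gene Stat92E stood at 186 and 262 CPM, the zinc finger gene crol at 172 and 259 CPM, the homeodomain cofactor gene exd at 134 and 166 CPM and zfh1, for a repressor found in somatic gonad cells, at 94.9 and 172 CPM. The transcription cofactor gene eya, whose product marks early follicle cells, stood at 18.8 and 18.7 CPM, and the gene of its partner so at 40.8 and 40.1 CPM. The bric-à-brac gene bab2 stood at 64.0 and 92.1 CPM and its neighbour and paralog bab1 at 1.44 and 3.07 CPM. The dorsal-anterior factor gene mirr stood at 37.6 and 48.5 CPM and the BTB repressor gene chinmo at 49.4 and 85.0 CPM. The polar and stalk gene cas stood at 0.641 and 0.820 CPM, the border cell gene slbo at 0.694 and 1.02 CPM, the cut gene (ct) at 0.908 and 1.44 CPM and hindsight, listed as peb, at 0.214 and 0.102 CPM. The homeobox genes hth, en and inv and the zinc finger gene Blimp-1 had no read.

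The list of surface and junction genes of follicle cells was expressed in full, 21 of 21, against 50.2% of all protein-coding genes. Lists that have no tie to follicle cells, such as the cell cycle genes, were full as well. The beta-catenin gene arm stood at 1115 and 1089 CPM, the E-cadherin gene shg at 45.6 and 67.9 CPM and alpha-Cat at 76.4 and 107 CPM. N-cadherin (CadN) stood at 12.9 and 26.034 CPM. Of the basolateral polarity genes, dlg1 stood at 178 and 246 CPM, scrib at 41.1 and 60.5 CPM and l(2)gl at 44.976 and 72.6 CPM. Of the apical ones, par-6 stood at 43.9 and 62.6 CPM, aPKC at 35.4 and 48.9 CPM and crb, with the fewest reads of the list, at 3.63 and 4.82 CPM. Of the adhesion genes, Fas2 and Fas3 are used as follicle cell markers. Fas2 stood at 33.4 and 45.9 CPM, Fas3 at 23.2 and 27.2 CPM and neurotactin (Nrt) at 355 and 425 CPM. Septate junction genes were present too, with cora at 172 and 213 CPM, Nrg at 104 and 139.9 CPM and kune at 11.6 and 14.0 CPM.

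Of the basement membrane and integrin genes, 18 of 22 were expressed (81.8%), against 50.2% of all protein-coding genes. Of the laminin genes, LanB1 stood at 795 and 1018 CPM, LanA at 412 and 693 CPM and LanB2 at 236 and 279 CPM. Of the collagen IV genes, Cg25C (Col4a1) stood at 207 and 220.0 CPM and vkg at 201 and 220.0 CPM. Perlecan (trol) stood at 101 and 157 CPM and SPARC at 171 and 152 CPM. Of the integrin genes, mys stood at 194 and 250.3 CPM, if at 196 and 193 CPM and mew at 27.9 and 29.0 CPM. The second laminin alpha gene wb stood at 1.01 and 1.54 CPM and nidogen (Ndg) at 1.01 and 0.512 CPM.

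Markers of specialised ovarian somatic cells were mixed. At 1 CPM 9 of 13 were expressed (69.2%), above the 50.2% of all protein-coding genes. At 5 CPM 4 of 13 were expressed, below the 45.4% of all protein-coding genes. The Hedgehog receptor and target gene ptc stood at 292 and 377 CPM, the ligand gene hh at 52.0 and 52.9 CPM and the lamin gene LamC, a cap cell marker, at 203 and 201 CPM. The polar cell ligand gene os (upd1) and the cap cell gene en had no read. The related ligand gene upd3 stood at 1.39 and 1.69 CPM and upd2 at 0.427 and 1.13 CPM. Genes of the late follicle cell that build the eggshell were mostly below the limit, with 2 of 22 expressed, 12 between and 8 silent. The silent share of 36.4% was near the 34.1% of all protein-coding genes, while 50.2% of those were expressed. At 0.5 CPM 4 were expressed. The genes above 1 CPM were dec-1, for an eggshell matrix precursor, with 188 and 218.37 CPM, and the chorion gene Cp18, near the limit with 1.4956 and 1.02 CPM. In contrast, Cp36, Cp38 and Cp16 and the vitelline membrane genes Vm34Ca and Vm32E had no read.

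Germline genes were expressed in part, 16 of 32, with 7 silent. At 5 CPM the number was 8, while the share of all protein-coding genes was 50.2% at 1 CPM and 45.4% at 5 CPM. Of the germline-enriched ribosomal protein paralogs, RpS5b stood at 162 and 138 CPM and RpS19b at 63.8 and 57.2 CPM. The cyclin gene CycB3 stood at 76.4 and 90.5 CPM and the germ cell repressor gene pgc at 21.8 and 18.2 CPM. Of the differentiation genes, bam stood at 7.58 and 10.6 CPM and mei-P26 at 15.3 and 27.1 CPM. Of the oocyte genes, grk stood at 2.08 and 3.43 CPM, bcd at 2.14 and 2.51 CPM and exu at 1.87 and 2.56 CPM, and grk and exu overlap genes with more reads. For nos there were 0 and 2 reads, for osk 0 and 2 and for orb 4 and 4, at or below the limit that a count of 0 allows or close to it. The oogenesis genes swa, otu, yl, BicC and Pxt had no read.

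Meiosis genes were expressed in 14 of 19 cases (73.7%), against 50.2% of all protein-coding genes. Of the recombination and repair genes, mei-9 stood at 62.1 and 65.6 CPM, spn-A at 68.2 and 57.1 CPM, rec at 39.6 and 37.0 CPM and okr at 36.6 and 38.4 CPM. Of the kinesin genes, sub stood at 40.5 and 45.7 CPM and nod at 23.5 and 24.1 CPM. Of the synaptonemal complex, corolla, listed as CG8316, stood at 9.83 and 11.4 CPM, c(2)M at 3.37 and 2.87 CPM and c(3)G at 1.34 and 1.74 CPM, while cona stood at 0.214 and 0.307 CPM and the cohesion gene ord had no read.

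Testis genes were expressed in 4 of 30 cases and silent in 20, against 50.2% and 34.1% of all protein-coding genes. Those above 1 CPM were achi with 9.19 and 12.1 CPM, mia with 8.28 and 10.5 CPM, topi with 8.92 and 7.58 CPM and the phosphatase gene twe with 2.08 and 3.28 CPM. The spermatocyte transcription genes aly, comr, can, sa and nht had no read. On the Y chromosome none of 10 genes was expressed and 9 had no read. The remaining one, fdy (FDY), had 15 and 10 reads; its autosomal near copy vig2 had 28706 and 27753 reads, so reads of the pair may not be told apart. Of the genes for sex determination and dosage compensation 17 of 18 were expressed. The switch gene Sxl stood at 37.7 and 57.2 CPM, tra at 11.9 and 8.71 CPM and dsx at 88.4 and 148 CPM. The male-specific lethal gene msl-2 stood at 12.5 and 13.3 CPM. Of the RNAs that coat the male X, roX1 stood at 1.44 and 2.72 CPM and roX2 at 0.107 and 0.102 CPM, and roX1 overlaps ec, which had more reads.

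Lists for other tissues differed in how many members were expressed. The share was 57.9% for muscle, 53.3% for glia and neural progenitors, 50% for blood cells, 45% for neurons, 14.3% for the fat body and 7.69% for gut and trachea, against 50.2% of all protein-coding genes. The limit mattered for several of these lists: at 5 CPM, 6 of 19 muscle markers, 5 of 15 glial and neural progenitor markers and 4 of 20 neuronal markers were expressed, against 45.4% of all protein-coding genes. Fat body markers were expressed in 2 of 14 cases, the fatty acid synthase gene CG3523 (FASN1) with 1294 and 1705 CPM and Lpin with 83.9 and 95.015 CPM, while the yolk protein genes Yp1 and Yp2 had no read and Yp3 had 30 and 6 reads. Gut and tracheal markers were expressed in 1 of 13 cases, the Snail-family gene esg with 53.5 and 78.6 CPM. Blood cell markers were expressed in 7 of 14 cases, among them the engulfment receptor genes drpr with 199 and 243 CPM and crq with 32.4 and 37.5 CPM and the surface protein gene atilla with 26.4 and 21.4 CPM, while Hml had 0 and 2 reads and NimC1, eater and He had none.

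Muscle markers were expressed in 11 of 19 cases, with Tm1 at 101 and 139 CPM, Zasp52 at 83.4 and 109 CPM, Act57B at 24.6 and 32.7 CPM and Mhc at 1.76 and 3.74 CPM. The flight muscle genes Act88F and up and the troponin C genes TpnC47D and TpnC73F had no read. Neuronal markers were expressed in 9 of 20 cases. The RNA-binding protein gene elav stood at 16.6 and 23.3 CPM, the synaptic priming gene unc-13 at 42.1 and 72.3 CPM and the microtubule protein gene futsch at 9.19 and 21.9 CPM, while brp, nSyb, Syt1 and para stayed at or below 0.214 CPM and Gad1, Rdl and VAChT had no read. Among glial and neural progenitor markers, 8 of 15 were expressed, the G protein regulator gene loco with 128 and 125 CPM and brat with 61.4 and 94.4 CPM, while repo, the master regulator of glia, stood at 2.24 and 3.13 CPM and pros, dpn and ase had at most 2 reads per library. Hox genes were expressed in 1 of 8 cases, Antp with 4.22 and 6.66 CPM, and Ubx, abd-A, lab, Dfd and pb had no read. Of the gap, pair-rule and segment polarity genes, 2 of 18 were expressed, h with 16.2 and 19.1 CPM and wg with 2.78 and 2.36 CPM.

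**Figure D3:**
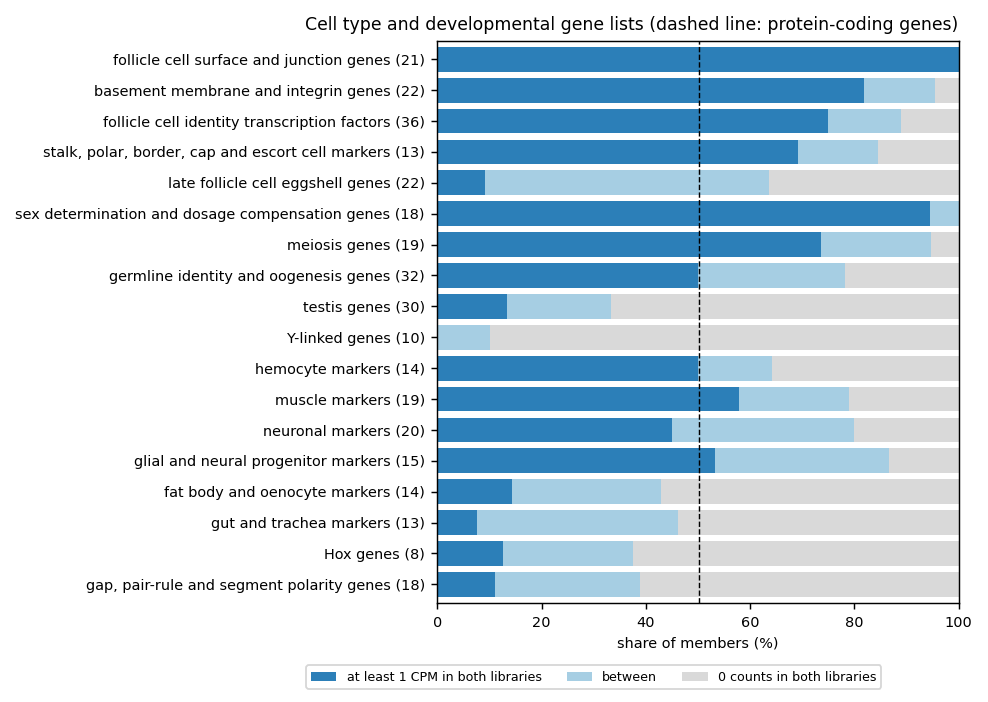
Each bar is 1 list of cell type or developmental genes, with its number of genes in parentheses, split by the share (%) that reached 1 CPM in both EGFP KD libraries, had 0 counts in both, or lay between; the dashed line marks the 50.2% of all protein-coding genes that were expressed. Junction genes are at 100%, eggshell, testis, Hox and segmentation lists lie left of the line, and the Y-linked list has no expressed gene.

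Receptors and transducers of most signalling pathways were expressed, together with some of the ligands. The share expressed was 72.7% for the JAK/STAT list, 69.6% for Notch, 87.5% for EGFR and FGFR and 75% for PDGF and VEGF receptors. Of all protein-coding genes it was 50.2%. In the JAK/STAT pathway, 8 of 11 genes were expressed, the receptor gene dome with 206 and 241 CPM, the kinase gene hop with 36.7 and 53.5 CPM and the feedback inhibitor gene Socs36E with 75.2 and 93.8 CPM, while the ligand genes os, upd2 and upd3 are described above. In the Notch pathway, 16 of 23 genes were expressed, the receptor gene N with 70.9 and 113 CPM, the cofactor gene mam with 49.7 and 88.0 CPM and the target gene E(spl)m3-HLH with 118 and 120.4 CPM. Of the ligand genes, Dl stood at 0.214 and 0.410 CPM and Ser at 0.107 and 0.205 CPM. In the EGFR and FGFR pathway, 21 of 24 genes were expressed, the receptor gene Egfr with 125 and 139.9 CPM, its ligand gene spi with 176 and 194 CPM, the feedback gene kek1 with 116 and 163 CPM and the FGF gene bnl with 48.2 and 67.5 CPM. The FGF receptor gene btl, through which bnl acts, had 2 and 11 reads, and the second receptor gene htl stood at 6.41 and 9.33 CPM. Of the PDGF and VEGF receptor pathway, 3 of 4 were expressed, the receptor gene Pvr with 20.6 and 22.5 CPM and the ligand gene Pvf2 with 30.7 and 29.1 CPM.

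In the Hedgehog and Wnt pathways, 23 of 29 genes were expressed (79.3%), against 50.2% of all protein-coding genes. The share was 75% for the BMP and activin list and 76.5% for the Hippo list. Of the Hedgehog transducer genes, smo stood at 15.1 and 23.4 CPM and ci at 23.7 and 47.7 CPM. Of the Wnt ligand genes, Wnt5 stood at 58.1 and 72.2 CPM, Wnt2 at 40.0 and 36.7 CPM and Wnt6 at 7.7987 and 10.4 CPM. Of their receptor genes, fz2 stood at 20.8 and 29.9 CPM and fz at 15.2 and 25.7 CPM. In the BMP and activin pathway, 15 of 20 genes were expressed, the ligand gene gbb standing at 319.9 and 275 CPM, dpp at 2.19 and 2.46 CPM and the transducer gene Mad at 59.0 and 72.9 CPM. Of the BMP receptor genes, sax stood at 60.8 and 66.0 CPM, put at 54.1 and 68.7 CPM and tkv at 29.2 and 29.5 CPM. In the Hippo pathway, 13 of 17 genes were expressed. The kinase gene hpo stood at 124 and 123 CPM, the kinase gene wts at 27.7 and 38.6 CPM and the coactivator gene yki at 37.4 and 47.9 CPM, while the cadherin gene ds had no read.

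In the insulin and TOR pathway, 19 of 26 genes were expressed (73.1%), against 50.2% of all protein-coding genes. The share was 73.1% for the Toll and Imd list and 64.7% for the apoptosis list. The receptor gene InR stood at 6.94 and 11.6 CPM, Tor at 122 and 145 CPM and the translation inhibitor gene Thor, a foxo target, at 94.1 and 109.9 CPM. Of 8 insulin-like peptide genes, Ilp6 alone reached 1 CPM, with 33.8 and 38.5 CPM, and it overlaps phl, which had more reads; the binding protein gene ImpL2 stood at 208 and 263 CPM. Of the ecdysone genes, 13 of 26 were expressed, near the 50.2% of all protein-coding genes. Of the receptor genes, EcR stood at 6.9975 and 8.51 CPM and usp at 87.5 and 91.5 CPM. Of the early response genes, br stood at 25.1 and 36.0 CPM and Eip74EF at 8.17 and 15.2 CPM. Cyp18a1, whose product degrades the hormone, stood at 75.8 and 88.0 CPM, while the synthesis genes dib and shd had no read. Of the Toll and Imd genes, 19 of 26 were expressed, among them the inhibitor gene cact with 150.4 and 188 CPM and the NF-kappaB genes dl with 81.5 and 108 CPM and Rel with 98.1 and 118 CPM. Of the apoptosis genes 11 of 17 were expressed, the effector caspase gene Ice (Drice) with 138 and 146 CPM and the inhibitor gene th (Diap1) with 133 and 128 CPM, while the inducer gene rpr stood at 0.214 and 0.205 CPM and the inducer genes grim and skl had no read.

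All 38 cell cycle genes were expressed, against 50.2% of all protein-coding genes. Proliferation itself was not measured. Of the cyclin genes, CycB stood at 351 and 399 CPM, CycA at 178 and 210.0 CPM and CycE at 9.61 and 12.2 CPM. The mitotic kinase gene polo stood at 368 and 392 CPM. Of the replication genes, Mcm3 stood at 339 and 314 CPM and PCNA at 284 and 310.4 CPM. All 24 genes of the L(3)mbt-linked and related repressor complexes were expressed as well. The l(3)mbt gene, whose product binds chromatin and carries malignant brain tumour domains, stood at 180.5 and 183 CPM. Of the genes of its interactors, Lint-1 stood at 55.5 and 50.4 CPM and Lint-O, listed as CG2662, at 19.2 and 17.8 CPM; these are the 3 genes knocked down elsewhere in the series. Of the dREAM genes, Myb stood at 131 and 154 CPM, mip40 at 94.8 and 74.7 CPM, mip120 at 47.0 and 52.5 CPM, mip130 at 47.7 and 48.2 CPM and E2f2 at 33.3 and 35.6 CPM. Of the Polycomb genes, E(z) stood at 52.7 and 52.991 CPM and Pc at 11.0 and 11.3 CPM. All 12 insulator genes were expressed, with mod(mdg4) at 401 and 424 CPM, su(Hw) at 69.5 and 83.4 CPM and CTCF at 42.1 and 45.8 CPM. Of the heterochromatin and telomere genes 13 of 15 were expressed. Of the H3K9 methyltransferase genes, Su(var)3-9 stood at 21.2 and 18.04 CPM and G9a at 14.0 and 19.1 CPM, while HP6 stood at 0.214 and 0.307 CPM and the telomere gene moi had no read.

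Actin, tubulin and myosin genes were expressed in 28 of 30 cases, the exceptions being betaTub85D and Arpc3B, each without a read. Of the cytoplasmic myosin II genes, zip stood at 274 and 383 CPM and sqh at 768 and 787 CPM. Profilin (chic) stood at 1018 and 1193 CPM and cofilin (tsr) at 954 and 999 CPM. Of the heat shock genes, 14 of 28 were expressed, near the 50.2% of all protein-coding genes. The constitutive mitochondrial chaperone gene Hsp60 stood at 4180 and 3678 CPM and the chaperone gene Hsc70-3 of the endoplasmic reticulum at 902 and 913 CPM. Of the small heat shock genes, Hsp26 stood at 126 and 118 CPM, Hsp27 at 73.3 and 79.6 CPM and Hsp23 at 64.9 and 65.9 CPM, while Hsp22 had no read. The inducible Hsp70 genes Hsp70Aa, Hsp70Ab, Hsp70Bc and Hsp70Bbb had no read, and Hsp70Bb had 10 and 3 reads; these genes are near-identical copies, so how their reads were assigned bears on these values.

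Glycolysis genes were expressed in 15 of 17 cases. Lactate dehydrogenase, listed as ImpL3, stood at 3145 and 3404 CPM, Gapdh2 at 2300 and 2224 CPM, enolase (Eno) at 1092 and 1058 CPM and the hexokinase gene Hex-A at 249 and 337 CPM, while its paralog Hex-C had 0 and 4 reads. Of the oxidative stress and metal genes 16 of 22 were expressed, the peroxiredoxin gene Jafrac1 (Prx2) with 993 and 1039 CPM and thioredoxin reductase Trxr-1 with 946 and 919.7 CPM. Of the ferritin genes, Fer1HCH stood at 606 and 615 CPM and Fer2LCH at 409 and 468 CPM. Of the metallothioneins, MtnA stood at 48.2 and 49.5 CPM, MtnE had 0 and 2 reads, and MtnB, MtnC and MtnD had none.

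Gene families were collected by the names of their members. Cytosolic ribosomal proteins were expressed in 85 of 88 cases and took 27.4% and 25.3% of all reads; the 3 others were the duplicate genes RpL10Aa, RpL37b and RpS28a. The 8 CCT chaperonin subunits, all 17 aminoacyl-tRNA synthetases and all 21 nucleoporins were expressed, and 72 of 73 mitochondrial ribosomal proteins. Proteasome subunits were expressed in 34 of 48 cases, translation initiation factors in 36 of 45, V-ATPase subunits in 18 of 34 and complex I subunits in 31 of 39. Many of the members that were not expressed are second copies of a standard gene, such as the proteasome genes Prosalpha3T, Prosalpha4T1, Prosbeta2R1 and Rpt4R, the cap-binding genes eIF4E-4, eIF4E-5 and eIF4E-7 and the V-ATPase genes Vha16-2, Vha16-3 and Vha100-5. Of the standard proteasome genes, Rpn2 stood at 903 and 924 CPM and Prosbeta5 at 979 and 812 CPM, while the Prosbeta5 relatives Prosbeta5R1 and Prosbeta5R2 had no read.

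Some zeros in these families fell on genes that all cells are thought to need. The 20S core gene Prosalpha1 and its copy CG30382 (Prosalpha1R) had no read in either library, and neither did mRpL53, which lies within AGO1, or CG15434 (ND-B8), which overlaps Gs1l. In the same families, CG18624 (ND-MNLL) had no read and eIF-4B had 1 and 0 reads, and neither overlapped an expressed gene. Of the 66 members of 8 such families that were not expressed, 13 overlapped an expressed gene and 8 lay wholly within one. These are 19.7% and 12.1% of the 66. Over all protein-coding genes, overlap with an expressed gene was seen for 15.6% of the silent ones and 25.6% of those between, against 34.7% of the expressed ones. The order differed for genes wholly within the span of an expressed gene, which were 10.0% of the silent ones and 11.0% of those between, against 3.79% of the expressed ones. How near-identical and overlapping genes were counted is not stated in the labels, so a count of 0 in such a gene may not be read as absence of its transcript.

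Sensory and adult tissue families were almost entirely off. Odorant receptors were expressed in 1 of 60 cases, Or43b with 1.60 and 2.97 CPM, which overlaps Cul1. Gustatory receptors were expressed in 2 of 60, with Gr61a, a sugar receptor, at 18.1 and 13.4 CPM. Ionotropic receptors were expressed in 5 of 60, with Ir76a at 17.0 and 19.2 CPM, Ir40a at 11.965 and 11.0 CPM, Ir8a, a coreceptor, at 11.5 and 10.6 CPM, Ir7f at 8.39 and 8.15 CPM and Ir7b at 4.54 and 7.23 CPM. Pickpocket sodium channels were expressed in 4 of 29, ppk15 with 11.7 and 16.5 CPM, and opsins in 1 of 7, ninaE with 4.43 and 4.36 CPM. Cuticle proteins were expressed in 4 of 122 cases, odorant-binding proteins in 2 of 51 and seminal fluid proteins in 1 of 47, Acp36DE, which overlaps Fas3. No Osiris gene of 24, no Jonah or trypsin protease of 27, no antimicrobial peptide of 37, no Turandot gene of 8 and no lysozyme of 7 was expressed.

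Detoxification families, tetraspanins, methuselah-type receptors and nicotinic receptors lay between the sensory families and the families expressed in full. Neuropeptide and hormone receptors did not, with 8.51% expressed against 8.33% of the ionotropic receptors. The glutathione S-transferases, at 74.3%, were above the proteasome subunits at 70.8%. The methuselah-type receptors, at 56.2%, were above the V-ATPase subunits at 52.9%. Glutathione S-transferases were expressed in 26 of 35 cases, with GstD1 at 1476 and 1250 CPM, GstD3 at 306 and 275 CPM and GstD9 at 175 and 166 CPM. Cytochrome P450 genes were expressed in 33 of 82, with Cyp6a13 at 172 and 159 CPM, Cyp6d5 at 156 and 156 CPM and Cyp6a14 at 123 and 116 CPM, and UDP-glycosyltransferases in 9 of 35, with CG3797 at 47.6 and 53.042 CPM. Tetraspanins were expressed in 14 of 34, with Tsp42Ee at 340.3 and 416 CPM, and methuselah-type receptors in 9 of 16, with mthl9 at 97.3 and 103 CPM. Of the nicotinic acetylcholine receptor genes 4 of 10 were expressed, nAChRbeta2 with 14.7 and 12.5 CPM, and of the neuropeptide and hormone receptors 4 of 47, CCKLR-17D3 with 14.6 and 13.5 CPM and 5-HT1B with 13.2 and 13.7 CPM. At 5 CPM the number expressed was 17 for the P450 genes, 5 for the UDP-glycosyltransferases, 9 for the tetraspanins, 2 for the nicotinic receptors and 2 for the neuropeptide and hormone receptors.

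Histone genes were split. Of 116 entries 5 were expressed, and 4 of them are genes for replication-independent histones, His3.3B with 1287 and 1424 CPM, His4r with 748 and 647 CPM, His3.3A with 357 and 355 CPM and His2Av with 196 and 219.9 CPM. The remaining one, His2B:CG33868, stood at 1.4956 and 1.23 CPM. Messages of the replication-dependent histones carry no poly(A) tail and their genes are near-identical repeats, which limits what their zeros can show. The Stellate genes, X-linked testis repeats, were silent in 44 of 45 cases, and they too are near-identical copies.

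**Figure D4:**
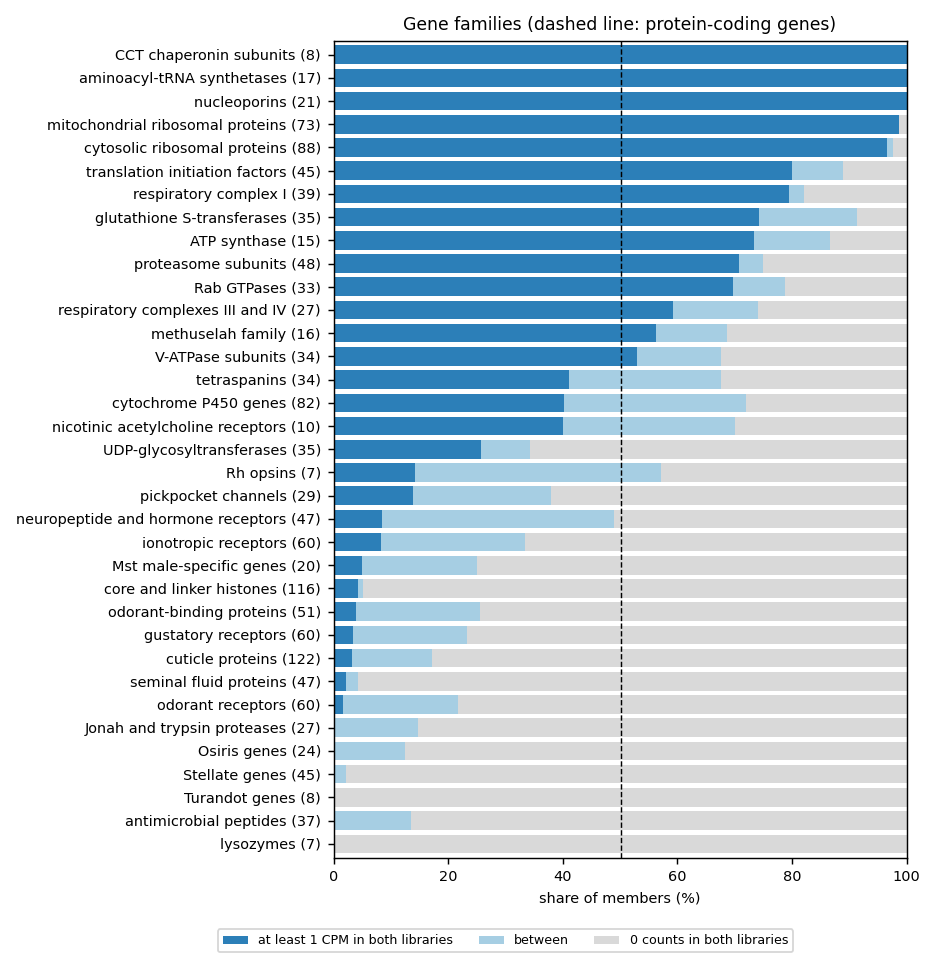
Each bar is 1 gene family collected by name, with its number of genes in parentheses, ordered by the share (%) of members at 1 CPM or more in both EGFP KD libraries and split further into members with 0 counts in both and members between; the dashed line marks the 50.2% of all protein-coding genes that were expressed. The CCT chaperonin, aminoacyl-tRNA synthetase and nucleoporin bars are full, and the odorant receptor, Osiris, lysozyme and antimicrobial peptide bars hold 1 or 0 expressed members.

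Few non-coding genes were expressed: 75 of 1655 long non-coding RNA genes, 31 of 355 antisense RNA genes and 3 of 258 snoRNA genes, and no miRNA gene of 234, in libraries that select poly(A) tails. Whether the counting used strand is not stated in the labels, so reads of an antisense gene and of its partner cannot be told apart. The long non-coding RNA CR34335 (X, 3545750 to 3546110) stood at 1565 and 1797 CPM, CR40469 (X) at 768 and 720.5 CPM and CR42862 (3L) at 349 and 565 CPM. The 3 expressed genes of the class that RefSeq calls ncRNA were all hairpin RNAs of one stretch of 3L, a kind of transcript that feeds the endogenous siRNA pathway. They were pncr009:3L (hpRNA:CR33940; 3L, 19486745 to 19488439) with 219 and 188 CPM, CR32207 (3L, 19477329 to 19478720) with 87.0 and 89.9 CPM and CR32205 (3L, 19420390 to 19424183) with 60.7 and 58.4 CPM. Among genes known only by a CG number, CG15784 (X, 5429571 to 5432526) stood at 1855 and 2187 CPM, CG6330 at 980.2 and 953 CPM, CG8036 at 878 and 919.9 CPM, CG2076 at 873 and 857 CPM and CG31676 at 864 and 833 CPM.

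Expressed genes were spread over all chromosomes but the Y. The share of protein-coding genes expressed was 55.8% on the X, 46.7% on 2L, 50.2% on 2R, 48.9% on 3L and 50.3% on 3R. It was 71.4% on the small chromosome 4, where 55 of 77 genes were expressed and 3 were silent, and 0 of 11 on the Y. Silent genes also lay in blocks. The longest run of neighbouring silent protein-coding genes held 108 genes of the histone cluster (2L, 21416953 to 21537368), whose zeros are limited as described above. The next held 31 genes (2L, 15771263 to 16135272), among them beat-Ia, beat-Ib and beat-Ic, for cell surface proteins of axon guidance, the oogenesis gene BicC and the complement-like gene Tep1. A run of 22 genes (3L, 15648571 to 15720073) held the Eig71E genes, which ecdysone induces in larval salivary glands. The longest run of expressed genes held 25 (2L, 2874890 to 3032300), among them lilli, Chd1 and okr, and the next held 23 (X, 9070318 to 9189309), among them HP1b and His3.3B.

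The libraries were alike but not interchangeable. Over the 5964 genes with a mean of at least 10 CPM, Pearson's r of log2 CPM was 0.986, a description across genes, which are not independent replicates. The median size of the log2 ratio between libraries was 0.17, and 95% of these genes stayed within 0.63. Counts differed beyond sampling noise, with a chi-square per degree of freedom of 25.4 over 8025 genes, so the libraries were kept as separate samples. A ratio above 2-fold was seen for 49 genes (0.822%), of which 2 were higher in library 1 and 47 in library 2.

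The ratio moved with the span of the gene. Genes were cut by span into 5 equal groups. In the group with the shortest spans (30 to 1446 bases) the median log2 ratio of library 1 over library 2 was 0.12, and in the group with the longest spans (7629 to 291517 bases) it was -0.34. In the group with the shortest spans 71.4% of genes were higher in library 1, and in that with the longest spans 10.0%. The 8 genes with the largest ratio in each direction, among those with a mean of at least 10 CPM, were these. Of the genes higher in library 1, only 2 passed 2-fold, so most of those named lay less far apart than many higher in library 2. The CG9932 gene stood at 7.26 and 21.6 CPM, the Polycomb gene ph-p at 5.45 and 15.4 CPM and Nipped-A, for a large scaffold of acetyltransferase complexes, at 16.0 and 43.0 CPM. The H3K4 methyltransferase gene trx stood at 10.5 and 27.8 CPM, upSET at 10.9 and 27.8 CPM, the splicing factor gene mbl at 10.2 and 25.6 CPM, the transcription corepressor gene spen at 31.4 and 77.9 CPM and CG10011 at 6.78 and 16.8 CPM, each higher in library 2. Higher in library 1 were CG17715 with 15.1 and 5.48 CPM, CG13689 with 17.1 and 7.94 CPM, Nca with 26.9 and 14.9 CPM and CG10098 with 35.2 and 20.6 CPM. The same held for the non-coding genes CR43144 with 26.4 and 14.0 CPM and pncr013:4 with 48.4 and 30.1 CPM and for the snoRNA hosts Uhg4 with 33.8 and 18.1 CPM and Uhg3 with 15.2 and 9.38 CPM. Genes described earlier that had more reads in library 2, such as tj, zfh1, futsch and LanA, differ between libraries of 1 condition, and the part of gene span in their values was not tested.

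**Figure D5:**
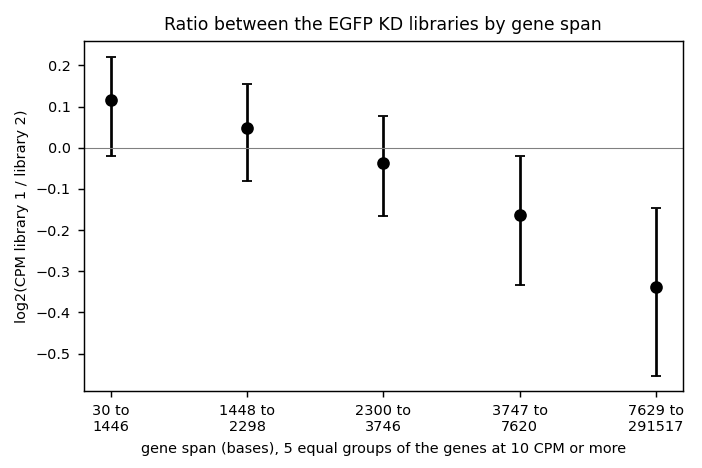
For genes at 10 CPM or more in the mean, the log2 ratio of CPM in EGFP KD library 1 over library 2 (y axis) is plotted for 5 equal groups by gene span in bases (x axis); points are medians and bars run from the lower to the upper quartile of the genes. The median is 0.12 at spans of 30 to 1446 bases and -0.34 at spans of 7629 to 291517 bases.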

How the data were processed

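Both control libraries were polyadenylated, stranded mRNA libraries of cultured ovarian somatic cells, per the labels' protocols. The authors deposited raw read counts per gene; the submitters' processing notes name HISAT2, HTSeq, edgeR and the build dm6 without roles or versions. The annotation release and the strand setting are not stated there, which makes values of overlapping genes, antisense pairs and near-identical copies uncertain. The 5 special lines of the table's 16732 entries were left out. Reads without a gene made up 16.2% and 15.6% of those in libraries 1 and 2, and ambiguous reads 1.07% and 1.10%, relative to all lines. Sample columns of the other groups (6) were not used.

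Counts were divided by the column sum over 16727 genes to give CPM (Python 3.11.15, pandas 2.3.3). Intervals are exact Poisson (scipy 1.17.1, 95%). The control is 1 group, so nothing was tested. The classification was checked on counts simulated with counting error alone. The real libraries differed by more than that, so the check covers the calculation and not the calls on these data. Alternatives were TMM factors (edgeR 4.0.16, R 4.3.3; 0.976 and 1.02), other CPM limits, library sizes with all reads, and each library alone.

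Symbols were matched to RefSeq genes of the same assembly: 12512 were current, 3933 matched through a synonym and 282 had no single match. Positions are spans of the whole gene. The 43 lists (825 entries, 3 without a line in the table) and the families were chosen with earlier results of these data known. Genes were named by rule: the markers, the first 25 genes by mean CPM, members of each list and family with the most reads and some silent ones, the first 5 non-coding and CG-numbered genes, and the 8 largest ratios between libraries in each direction; some were left out for space and others added after their values were seen.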

Additional observations from a re-analysis of the deposited data

How the results depend on the processing

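The number of expressed genes was 7102 with the limit at 1 CPM, 7441 at 0.5 CPM, 6350 at 5 CPM, 7086 with TMM scaling and 7022 with library sizes that include reads without a gene and ambiguous reads; from either library alone it was 7184 to 7264. Silent genes numbered 6902, 7785 when up to 3 reads over both libraries were allowed, and 7479 to 7571 from either library alone. With library sizes that include all reads, levels of single genes were lower by construction: piwi averaged 515 CPM, fs(1)Yb 185 CPM, and the 10 first genes took 5.65% of the reads. That setting moved the levels of 24 of the 25 first genes by more than the spread between the libraries, and TMM scaling moved none of them; with 2 libraries, either one alone cannot move a mean by more than that spread. Of 43 lists, the number of members expressed moved by more than 1.5 times in 9 at 5 CPM and in 2 at 0.5 CPM, the 9 being germline piRNA factors (9 of 18), specialised ovarian somatic cells (4 of 13), eggshell (1 of 22), germline (8 of 32), muscle (6 of 19), neurons (4 of 20), glia and neural progenitors (5 of 15), Hox (0 of 8) and segmentation genes (1 of 18); of 35 families it did so in 12 and 3, and each other setting moved at most 1 list and 1 family. Levels per kilobase of transcript were not run, because no transcript lengths were used here. No paired analysis was possible because there is 1 group and no test. A count of 0 allows up to 3 reads (one-sided, 95%), or 0.160 CPM in library 1 and 0.154 CPM in library 2.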
